A study of Mus musculus with 8 samples.

Results

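The microRNAs (miRNAs) mmu-miR-142-3p, mmu-miR-142-5p, mmu-miR-150 and mmu-miR-342-3p, which white blood cells express, were followed in mouse lung after particle instillation. They were taken by their exact names on the array and are written below without the mouse prefix. They are 4 of the 611 mouse miRNAs that it carried, and all 4 were detected on every array. The lungs came from female C57BL/6 mice (C57BL/6 Bom Tac in the series title) that were pregnant during the exposure. The Printex 90 group received carbon black nanoparticles suspended in nanopure water by intratracheal instillation, 0.067 mg on each of gestation days 7 and 10 and then 15 and 18, to a cumulative 0.268 mg. The vehicle control group received nanopure water alone by the same route, and all mice were killed at weaning, 26 to 27 days after exposure. Each group had 4 one-colour arrays, and the labels do not say whether each array was a separate mouse, so every p-value refers to the spread from array to array, which may be technical. The age of the mice was not given in the sources used here.

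miR-142 is made from a single hairpin that yields 2 mature strands, 3p and 5p, and it is expressed throughout the blood cell lineages. miR-150 is abundant in mature B and T lymphocytes, where it represses the transcription factor Myb, and its level falls when lymphocytes are activated. miR-342-3p is found in lymphocytes and in myeloid cells, and its gene lies within the span of Evl, which encodes an actin regulator. A mature miRNA selects its targets mainly through its seed, bases 2 to 8 from the 5′ end.

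The mature sequences show which RNAs carry these names and how they differ in seed, and 3 of the 4 miRNAs matched a mature entry in RefSeq (GRCm38.p6). The seed is in capitals. The array names miR-142-3p and miR-142-5p correspond to miR-142a-3p and miR-142a-5p, at chr11:87756903-87756925 and chr11:87756867-87756887 on the + strand, and miR-342-3p lies at chr12:108658680-108658702 on the + strand.
miR-142a-3p: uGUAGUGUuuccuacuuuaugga
miR-142a-5p: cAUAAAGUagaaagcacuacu
miR-342-3p: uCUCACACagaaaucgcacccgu
The 3 seeds differ from one another, and none of them occurs at bases 2 to 8 of any other of the 1679 mouse mature sequences in the table. In the next lines the mature strands are in capitals within the hairpins, which shows that both strands of miR-142 are cut from the Mir142 transcript (chr11:87756864-87756927, + strand) and that the Mir342 transcript (chr12:108658620-108658718, + strand) carries a second strand, miR-342-5p, upstream of miR-342-3p.
Mir142: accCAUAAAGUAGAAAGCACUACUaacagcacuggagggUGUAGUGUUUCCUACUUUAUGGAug
Mir342: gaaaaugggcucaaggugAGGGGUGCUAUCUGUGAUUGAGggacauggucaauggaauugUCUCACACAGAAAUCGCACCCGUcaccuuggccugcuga
RefSeq also places a hairpin on the opposite strand, Mir142b, over Mir142. Its mature miRNA, miR-142b (chr11:87756906-87756925, − strand), is complementary to miR-142a-3p over its whole 20 bases and shares a run of 10 bases, cauaaaguag, with miR-142a-5p. The array has no probe set named for miR-142b.

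Across the arrays 248 to 283 mouse miRNAs were detected, and the 75th percentile of intensity, by which each array was scaled, ran from 580.8 to 804.7. No spot was saturated. A single slide, scanned once, held all 8 arrays. Its row 1 carried the vehicle controls and its row 2 the exposed lungs, so an effect of the row and one of the particles cannot be told apart. Signals below are relative to that percentile, with mean ± SD over n = 4 arrays per group. Probes of different miRNAs differ in brightness, so levels are compared between arrays for 1 miRNA and never between miRNAs.

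miR-142-3p was close to level between the groups. In vehicle controls its relative signal was 4.04, 5.02, 4.28 and 4.39 on replicates 1 to 4, and after Printex 90 it was 4.46, 4.00, 4.24 and 4.78. The groups overlapped over nearly their whole range, with the highest value in vehicle control replicate 2 and the lowest in Printex 90 replicate 2. The means were 4.43 ± 0.418 in controls and 4.37 ± 0.332 after Printex 90, a ratio of 0.986 (95% interval 0.863 to 1.13). The log2 difference of -0.02 (SE 0.081) was within the spread between arrays (limma adjusted p = 0.918, exact permutation p = 0.8 for the single comparison, 2-sided).

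miR-142-5p, the other strand of the hairpin, also overlapped between the groups. Its relative signal was 0.829, 1.07, 0.950 and 0.983 in vehicle controls and 0.895, 0.895, 0.795 and 1.10 after Printex 90. Of the Printex 90 arrays 3 lay below the control mean and replicate 4 was the highest of all 8. The means were 0.959 ± 0.101 and 0.922 ± 0.13, with a log2 difference of -0.06 (SE 0.12, 95% interval -0.34 to 0.22, limma adjusted p = 0.854).

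The ratio of the miR-142 strands within an array does not depend on the scaling by a constant, and it lay between 4.33 and 5.33 on all 8 arrays. The log2 ratio of the 3p signal to the 5p signal was 2.29, 2.23, 2.17 and 2.16 in vehicle controls and 2.32, 2.16, 2.41 and 2.12 after Printex 90. The size of the ratio reflects the probes as well as the RNA, so only its change between groups is read. It differed by 0.04 between the group means (exact permutation p = 0.629, 2-sided, where the smallest p that 4 against 4 can give is 0.0286). The lowest and the highest ratio both came from the Printex 90 group, and without Printex 90 replicate 3, the highest, the difference was -0.01.

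miR-150 had the largest difference of the 4 by its log2 value, and the groups still overlapped. Its relative signal was 0.230, 0.299, 0.278 and 0.235 in vehicle controls. After Printex 90 it was 0.266, 0.209, 0.208 and 0.264. Each group held 2 higher and 2 lower arrays, and the 2 lowest of all were Printex 90 replicates 2 and 3. The means were 0.261 ± 0.0333 and 0.237 ± 0.0327, a ratio of 0.908 (95% interval 0.737 to 1.12). The log2 difference of -0.14 (SE 0.13) was within the spread between arrays (limma adjusted p = 0.767, exact permutation p = 0.371 for the single comparison, 2-sided).

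miR-342-3p varied least over the arrays. Its relative signal was 0.391, 0.434, 0.361 and 0.416 in vehicle controls and 0.353, 0.406, 0.393 and 0.431 after Printex 90. The 2 groups covered almost the same range. The means were 0.400 ± 0.0316 and 0.396 ± 0.0326, with a log2 difference of -0.02 (SE 0.079, 95% interval -0.20 to 0.17, limma adjusted p = 0.925).

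**Figure D1:**
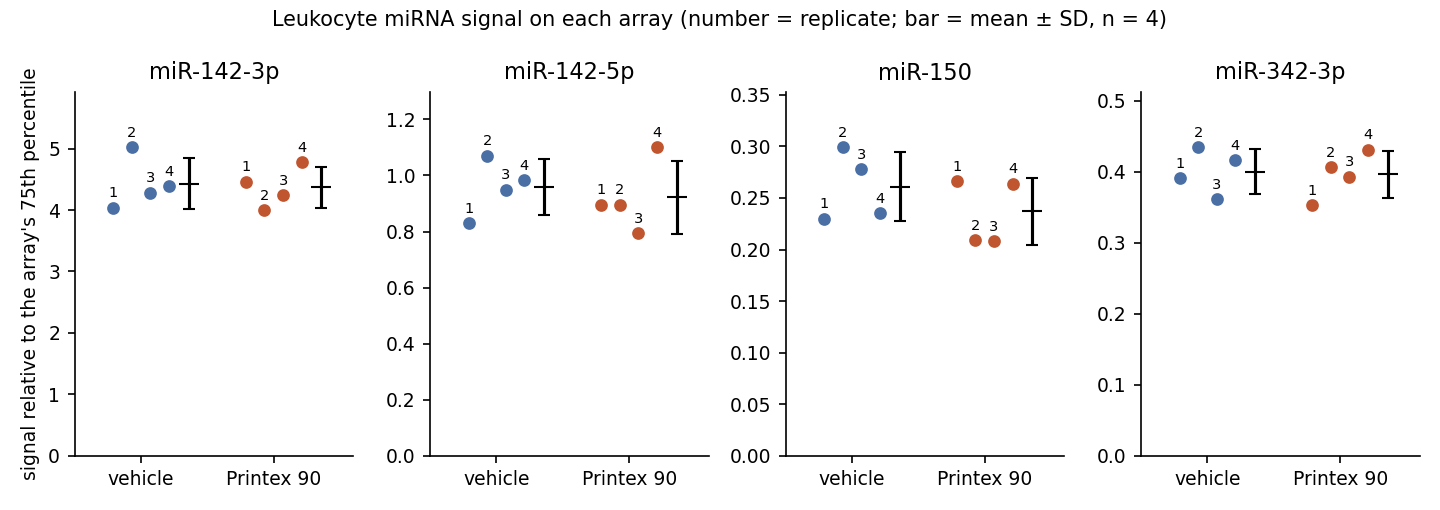
Signal of each miRNA relative to the array's 75th percentile (vertical axis, from 0, scaled separately for each miRNA) on the 4 vehicle control and 4 Printex 90 arrays, numbered by replicate, with mean ± SD (n = 4) as bars. The groups overlap for every miRNA; miR-142-3p runs from 4.04 to 5.02 in controls and from 4.00 to 4.78 after Printex 90.

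The partner strands of miR-150 and miR-342-3p were near background. miR-150* was not detected on any array, and miR-342-5p was detected on 1 vehicle control array and on no Printex 90 array. Both lay under the floor of 0.0388 set for low signals on all 8 arrays and were not tested, so no strand ratio could be formed for these hairpins. The sequence of miR-342-5p is the first capital run of the Mir342 hairpin above.

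Set against the whole array, 0 of the 4 miRNAs passed a limma adjusted p of 0.05, where 0.0% of the 268 tested miRNAs did. Without Printex 90 replicate 3, 3 of the tested miRNAs passed, none of them among the 4. At an unadjusted limma p of 0.05, 0 of the 4 passed, where 15 of the 268 (5.6%) did. For 0 of the 4 were the groups apart with no overlap, against 1.49% of the tested miRNAs. All 4 had log2 differences below 0, as did 65.7% of the tested miRNAs (31.7% lay above 0), and their median of -0.04 lay beside a median of -0.05 over all tested. The sign of so small a difference depended on the processing. With the percentile taken over all mouse miRNAs, 131 tested miRNAs lay above 0 and 128 below, and the differences of miR-142-3p and miR-342-3p turned positive (0.03 and 0.03), while miR-150 stayed below 0 under all 22 alternatives (-0.21 to -0.02). The alternative floors, detection filters and replicate block left the miR-150 estimate at -0.14, so they could not turn its sign.

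The 95% intervals give the size of change these arrays leave room for. They reached 0.19 log2 units to either side of the estimate for miR-142-3p and miR-342-3p, 0.28 for miR-142-5p and 0.30 for miR-150. For miR-142-3p they ran from a ratio of 0.863 to 1.13, and for miR-342-3p from 0.868 to 1.12. For miR-142-5p they ran from 0.792 to 1.16, so a fall of the size of its lower bound cannot be told from no change. In bulk lung RNA, fewer white blood cells and less of a miRNA per cell cannot be told apart.

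Each miRNA was measured by 2 probes of 10 spots per array, and the spread between spots gives the error of reading a probe on an array, without that of labelling, hybridization or scaling. All kept spots of all 8 probes were well above background. The spread between spots of a probe on an array had a median coefficient of variation of 2.86% to 4.74% for 7 probes and 7.67% for the dimmer probe of miR-150. The standard error of a probe's mean was at most 3.45% on any array. Between arrays of a group the coefficient of variation was 9.43% and 7.61% for miR-142-3p (control and Printex 90), 10.5% and 14.1% for miR-142-5p, 12.8% and 13.8% for miR-150, and 7.88% and 8.23% for miR-342-3p.

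The probes of each miRNA moved together over the arrays. The correlation of the 2 probes' log2 signals over the 8 arrays, given as a description of probes that share arrays and target, was 0.89 for miR-142-3p, 0.99 for miR-142-5p and 0.98 for miR-150 and for miR-342-3p. The probes' log2 differences between groups were -0.06 and -0.06 for miR-142-5p, -0.10 and -0.15 for miR-150, and -0.02 and -0.02 for miR-342-3p. For miR-142-3p they were 0.00 and -0.06, and the dimmer of its probes kept 69 of 80 spots after outlier spots were left out, the fewest of the 8. Its intensity ran from 794.1 to 1143.0 over the arrays, against 29.9 to 46.5 for the dimmer miR-150 probe.

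Set beside the other miRNAs of the array, miR-142-3p and miR-342-3p varied about as much as the median miRNA, and miR-142-5p and miR-150 varied more. The highest array exceeded the lowest by 1.26-fold for miR-142-3p, 1.39-fold for miR-142-5p, 1.44-fold for miR-150 and 1.23-fold for miR-342-3p, where the median of the 240 miRNAs detected on all arrays was 1.31-fold. The within-group SD was 0.12 log2 units for miR-142-3p and miR-342-3p, equal to the median of 0.12, and 0.18 for miR-142-5p and 0.19 for miR-150. Of the 240 miRNAs, 197 had a smaller within-group SD than miR-150 and 111 a smaller one than miR-342-3p.

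On 2 arrays of each group all 4 leukocyte miRNAs departed from their means in the same direction. Vehicle control replicate 2 and the Printex 90 array of replicate 4 were the only arrays on which all 4 lay above their own means over the 8 arrays. On the control array they lay 0.19, 0.20, 0.28 and 0.13 log2 units above (first the 3p and 5p strands of miR-142, then miR-150, then miR-342-3p). On Printex 90 replicate 4 they lay 0.12, 0.24, 0.10 and 0.12 above. All 4 lay below their means on vehicle control replicate 1 (-0.12, -0.17, -0.10 and -0.02) and on Printex 90 replicate 3 (-0.05, -0.23, -0.24 and -0.02). On both of these arrays miR-342-3p was close to its mean, as was miR-142-3p on Printex 90 replicate 3. The high and the low arrays were thus spread over both groups.

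**Figure D2:**
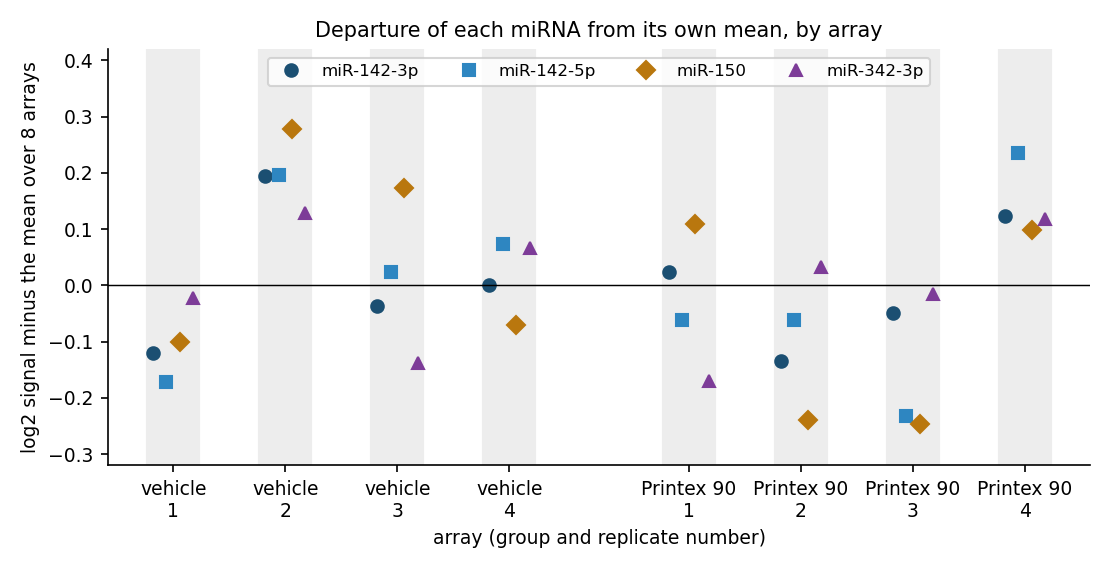
Log2 signal of each miRNA minus its own mean over the 8 arrays (vertical axis) on each vehicle control and Printex 90 array (horizontal axis), with 1 marker per miRNA. All 4 markers lie above 0 on control array 2 and exposed array 4, and all 4 lie below 0 on control array 1 and exposed array 3.

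Of the 6 pairs among the 4 miRNAs, the strands of the miR-142 hairpin had the highest Pearson r, and miR-142-3p and miR-150 the highest Spearman rho. Over the 8 arrays miR-142-3p and miR-142-5p had a Pearson r of 0.81 and a Spearman rho of 0.69 (exact permutation p = 0.0152 and 0.0694, adjusted over the 6 pairs 0.0688 and 0.139). miR-142-3p and miR-150 had r = 0.78 and rho = 0.76 (exact permutation p = 0.0229 and 0.0368, adjusted 0.0688 and 0.139). miR-142-5p and miR-150 had r = 0.71 and rho = 0.62 (exact permutation p = 0.0529 and 0.115, adjusted 0.106 and 0.172). No pair passed an adjusted p of 0.05. Without the 2 arrays farthest from the median of the first miRNA, vehicle control replicate 2 and Printex 90 replicate 4, these r values were 0.43, 0.60 and 0.54. The relations were thus weaker over the remaining arrays. Leaving out the extremes of the first miRNA narrows its range, which alone can lower r. With the group means removed r was 0.81, 0.81 and 0.70 (permutation p adjusted over the 6 pairs 0.0458, 0.0458 and 0.132). That permutation mixed arrays of both groups after centring, so its p is not exact and may be too small. The first 2 pairs are therefore not counted as passing. The 4 arrays of a group are too few for an r of their own.

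miR-342-3p followed the others less closely, and the difference between its correlations and theirs was not tested. Its r was 0.46 with miR-142-3p (rho 0.43, exact permutation p = 0.246 and 0.299, adjusted 0.295 and 0.359) and 0.56 with miR-142-5p (rho 0.69, exact permutation p = 0.154 and 0.0694, adjusted 0.232 and 0.139). Without the 2 farthest arrays these r values were -0.43 and 0.00. With miR-150 the r was -0.01 (rho 0.10, exact permutation p = 0.986 and 0.840, adjusted 0.986 and 0.840), and -0.46 without its 2 farthest arrays. Vehicle control replicate 3 and Printex 90 replicate 1 were the arrays on which miR-150 was high (0.17 and 0.11 log2 units above its mean) while miR-342-3p was low (-0.14 and -0.17).

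Each of the 4 was also set beside the 239 other miRNAs detected on all arrays, ranked by Pearson r over the 8 arrays as a measure of likeness, with no test. The miRNAs most like miR-142-3p were miR-142-5p (0.81), miR-150 (0.78) and miR-1198 (0.50), with miR-342-3p at rank 4. The likeness to miR-1198 turned negative under 4 of 16 alternatives and was 0.03 with the floor halved, so it depended on the floor for low signals. That to miR-142-5p stayed between 0.59 and 0.96 under 17 alternatives. These did not include leaving out the 2 farthest arrays, which gave 0.43. The 3 most like miR-142-5p were the other 3 miRNAs described here, miR-142-3p (0.81), miR-150 (0.71) and miR-342-3p (0.56). miR-150 was most like miR-15a* (0.79), then miR-142-3p (0.78) and miR-466h (0.74), with miR-142-5p at rank 7 and miR-342-3p at rank 101. miR-342-3p was most like miR-24-1* (0.88), miR-218 (0.83) and miR-219 (0.70), with miR-142-5p at rank 9 and miR-142-3p at rank 21. With the floor doubled no r was obtained for miR-24-1* or for miR-1198. With normexp the r fell to 0.40 for miR-342-3p and miR-24-1* and to 0.45 for miR-150 and miR-15a*, and with the deposited table it was 0.30 for miR-150 and miR-466h and 0.48 for miR-150 and miR-15a*. All values of an array share its scaling and labelling, which enters every one of these correlations.

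**Figure D3:**
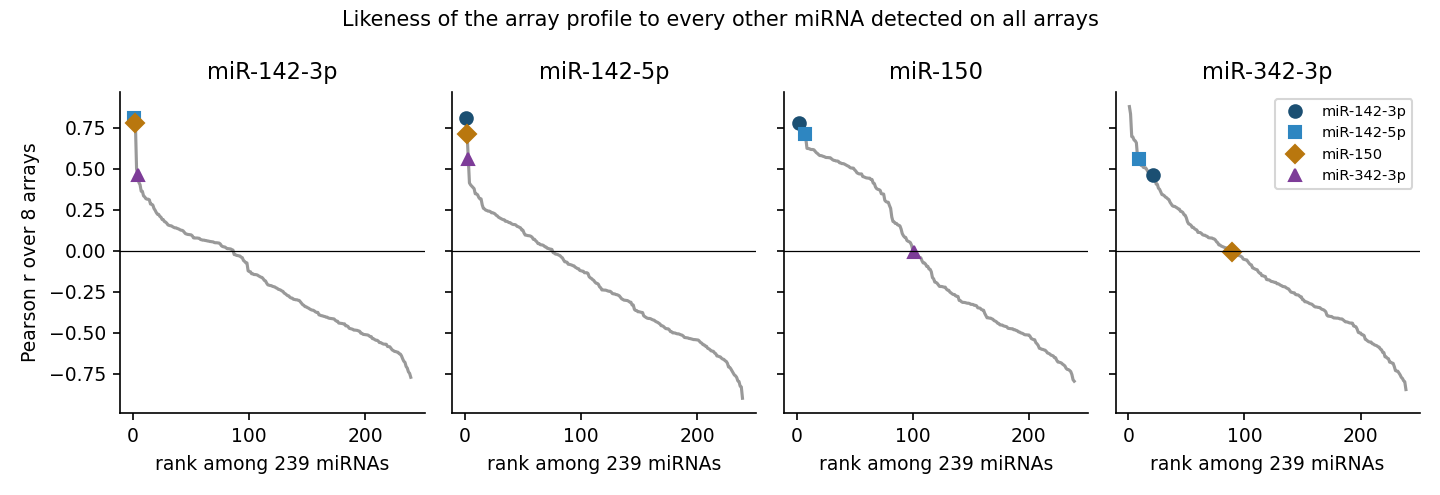
Pearson r over the 8 arrays between each miRNA (panel title) and the 239 other miRNAs detected on all arrays, sorted from highest to lowest (grey line), with the other 3 leukocyte miRNAs marked. miR-142-5p and miR-150 hold ranks 1 and 2 for miR-142-3p, whereas miR-150 is at rank 89 for miR-342-3p.

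The red blood cell marker miR-451 did not separate the arrays high for all 4 leukocyte miRNAs from those with all 4 below their means. The endothelial marker miR-126-3p was lower on the former than on the latter, a description with no test. The red blood cell miRNA miR-451 was lowest on vehicle control replicate 2 (17.9), where miR-142-3p, miR-150 and miR-342-3p were highest, and it was highest on vehicle control replicate 1 (42.6), where all 4 were below their means. On Printex 90 replicate 4, the other array on which all 4 were high, it was 28.1, the highest of its group. On Printex 90 replicate 3, where all 4 were below their means, it was 19.8, the lowest of its group. The endothelial miR-126-3p was 36.7 on vehicle control replicate 2 and 36.3 on Printex 90 replicate 4, the arrays where all 4 were high. On vehicle control replicate 1 and Printex 90 replicate 3, where all 4 were below their means, it was 41.7. The controls other than replicate 2 lay between 41.7 and 42.3. The lowest miR-126-3p value, 33.9, was on Printex 90 replicate 1, which was not high for all 4. The summed signal of 3 erythroid miRNAs ran from 19.7 to 46.9 in controls and from 21.7 to 30.6 after Printex 90. That of 6 epithelial miRNAs ran from 7.48 to 8.33 and from 7.84 to 9.31, and that of 2 endothelial ones from 37.3 to 43.0 and from 34.4 to 42.3. The part of blood or other cells in the array-to-array pattern was not tested.

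Between the treatment groups, 0 members of these other-cell lists passed a limma adjusted p of 0.05, where 0.0% of all tested did, and 65.7% of all tested had differences below 0 and 31.7% above. All 3 erythroid and both endothelial miRNAs had differences below 0, with medians of -0.25 and -0.15, and all 6 tested epithelial ones lay above 0, with a median of 0.07. The epithelial miR-31, named after its values were seen, had the only unadjusted limma p under 0.05 of these lists (log2 difference 0.20, limma adjusted p = 0.706), where 5.6% of all tested had one. Of the first members, miR-451 differed by -0.20, miR-126-3p by -0.10 and the epithelial miR-200c by 0.09. Of 5 smooth muscle and mesenchymal miRNAs 1 lay above 0 (median -0.04), and their first member miR-143 differed by -0.04, a sign that turned under 5 of 22 alternatives. The 4 tested striated muscle miRNAs lay below 0 (median -0.74), with miR-1 at -0.77 (SE 0.91), and the liver miR-122 differed by 0.44 (SE 0.99). The summed signal of the 4 leukocyte miRNAs ran from 5.49 to 6.83 in controls and from 5.51 to 6.58 after Printex 90.

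Other miRNAs of lymphocytes also had small differences. The list held 10, the miR-181 family and miR-17 with its cluster mates, which act in lymphocyte development. All 10 were tested, 1 had a log2 difference above 0, 9 had one below 0 and 0 passed a limma adjusted p of 0.05. Their median log2 difference was -0.04, against -0.05 over all tested. miR-181b, at 0.204 ± 0.00536 in controls and 0.191 ± 0.00824 after Printex 90, had the only unadjusted limma p under 0.05 of the list, 1 of 10 where 5.6% of all tested had one (log2 difference -0.10, SE 0.038, limma adjusted p = 0.706), and its difference was above 0 with quantile normalization and with the normexp background (0.004 and 0.02). miR-181a differed by -0.10 (SE 0.054).

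The list of myeloid and activation miRNAs had larger values in the other direction, with 6 of 9 tested members above 0, 3 below 0 and 0 past a limma adjusted p of 0.05, where 31.7%, 65.7% and 0.0% of all tested miRNAs were. That balance over all tested turned with the processing, to 187 above and 80 below with normexp. The list's median log2 difference was 0.18, which is the value of miR-223, and that of miR-223 was -0.02 without Printex 90 replicate 3. The listed miR-132, miR-147 and miR-9 were on the array but not tested. Members of this list were known from earlier results of these arrays to be high after Printex 90, so it is not independent evidence of that direction. miR-155, induced in activated macrophages and lymphocytes, differed by 0.50 (95% interval 0.05 to 0.96). Its signal, 0.0458 to 0.0948, lay just above the floor of 0.0388, and its difference was 0.07 with the floor doubled, 0.19 with normexp, 0.22 with the deposited value table and 0.30 with the mean of the probes' log2 signals. miR-146a differed by 0.24 (-0.04 to 0.51) and miR-146b by 0.80 (0.33 to 1.28). The limma adjusted p was 0.706 for miR-155 and miR-146a and 0.702 for miR-146b. Without Printex 90 replicate 3 miR-146b passed (log2 difference 0.99, limma adjusted p = 0.0169), and over all 22 alternatives its adjusted p ran from that value to 0.886. miR-21, named for having the lowest unadjusted p of the list, differed by 0.49 (0.28 to 0.69, limma adjusted p = 0.203).

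Because miR-142-3p marks white blood cells in general, the named miRNAs were also expressed as ratios to it within each array, a description, chosen after the values were seen, that does not depend on the scaling. The log2 ratio of miR-146b to miR-142-3p ran from -4.29 to -3.78 in controls and from -3.71 to -2.88 after Printex 90, without overlap. The relative signal of miR-146b alone already had no overlap (0.224 to 0.299 and 0.323 to 0.605), as for 1.49% of the tested miRNAs. Its ratio is thus not separate evidence, and the share of tested miRNAs with such a ratio was not counted. The log2 ratio of miR-155 to miR-142-3p ran from -6.58 to -6.21 and from -6.27 to -5.55, with overlap. Relative to miR-142-3p the group means differed by 0.82 for miR-146b, 0.52 for miR-155, 0.26 for miR-146a, 0.20 for miR-223 (from -1.36 to -1.16 in controls and from -1.49 to -0.40 after Printex 90), and -0.08 for miR-181a and for miR-181b.

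miR-223, a miRNA of neutrophils and other myeloid cells, was far higher on 1 array than on the rest. Its signal reached 3.21 on Printex 90 replicate 3, while the other 7 arrays lay between 1.58 and 2.21, and on that array miR-142-5p and miR-150 had their lowest values of all 8 (0.795 and 0.208). miR-142-3p and miR-342-3p were near their means there (4.24 and 0.393). On Printex 90 replicate 4, where all 4 were above their means, miR-223 was 1.70, its second lowest value. Without Printex 90 replicate 3 the log2 difference of miR-223 was -0.02 in place of 0.18, and that of miR-142-5p was 0.008 in place of -0.06. Printex 90 replicate 3 also had the lowest 75th percentile of intensity (580.8) and the fewest detected mouse miRNAs (248), and the part of these in the values was not tested.

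**Figure D4:**
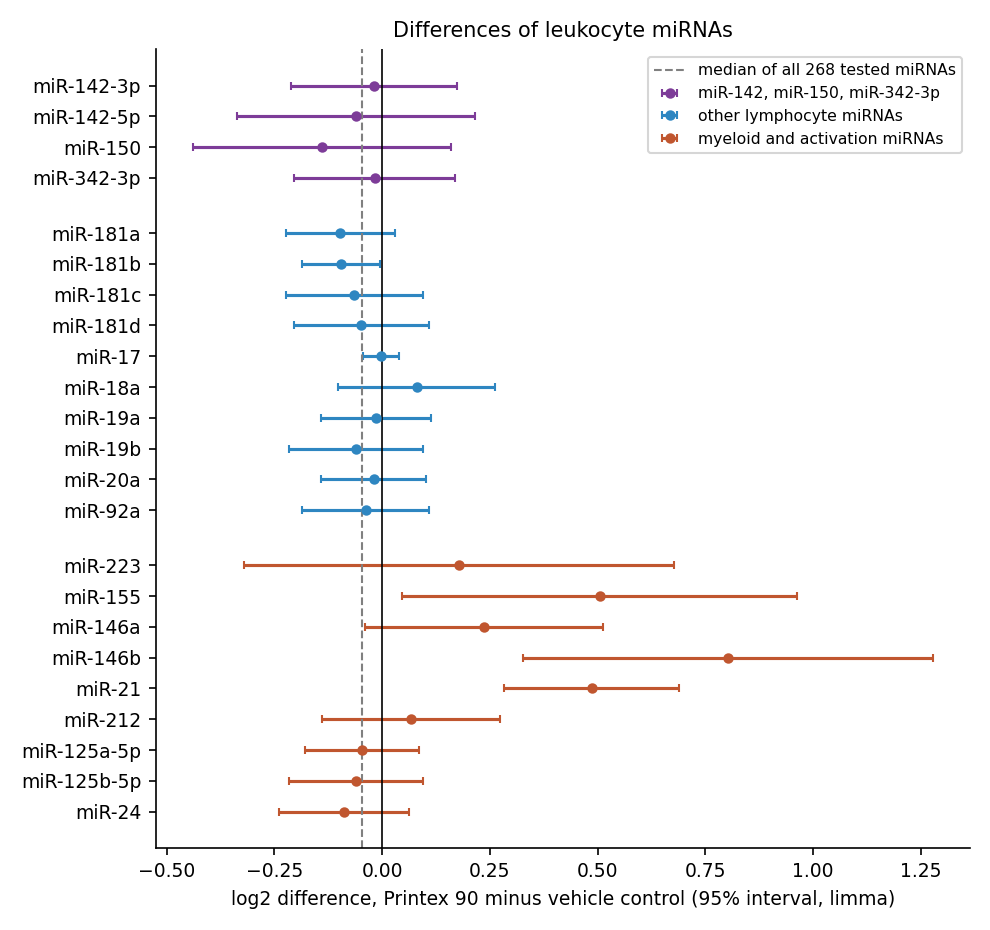
Log2 difference, Printex 90 minus vehicle control, with its 95% interval from limma (horizontal axis), for the 4 leukocyte miRNAs, 10 other lymphocyte miRNAs and 9 myeloid and activation miRNAs. The dashed line is the median of all 268 tested miRNAs (-0.05); the intervals of all 4 leukocyte miRNAs include 0, and those of miR-155, miR-146b and miR-21 lie above it.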

How the data were processed

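Lung RNA of mice was hybridized to 8 one-colour arrays, 4 per group, with groups and replicate numbers taken from the sample labels. Per the file headers, the deposited intensity of each spot was read with version 10.7.3.1 of Agilent Feature Extraction (grid 021828), which subtracted the background array by array and applied no scaling across arrays. The authors' deposited log2 value table served as an alternative; how it was made was not given in the sources used here. It matched quantile-normalized log2 median signals recomputed from the scanner values (correlation of 1.0 on every array). Deposited flags mark spots as outliers, saturated or well above background.

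Outlier spots were left out, spots of a probe averaged and probes of a miRNA summed. Detection needed 50% of the spots of at least 1 probe well above background. Signals were scaled to the 75th percentile of the 240 mouse miRNAs that every array detected, floored at 0.0388 and put on the log2 scale. The 268 miRNAs found on 4 or more arrays were fitted with limma 3.58.1 (R 4.3.3) and adjusted by Benjamini-Hochberg over all 268. The fit was tested on simulated data. Single values were compared with exact permutation tests.

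The miRNAs and lists were chosen with earlier results of these data known. The text names the 4 miRNAs, the other strands of their hairpins, miR-155, miR-223, miR-146a, miR-146b, miR-181a, miR-181b, the first member of each list of other cells and, for each of the 4, the 3 miRNAs most alike over the arrays. miR-21 and miR-31 were chosen after their values were seen. The replicate numbers were not treated as pairs in the main fit. The files have no mean spot signal, so normexp, an alternative, used the median. The other alternatives were the scaling, detection filter, probe summary, floor, spread model, replicate block and each array left out. The number of arrays limits the precision.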

Additional observations from a re-analysis of the deposited data

Results flagged for a closer look

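In 34 groups of 4 arrays the most extreme array's distance to its nearest neighbour, as a share of the group's range, was compared with Dixon's 95% limit (0.830, computed for 4 normal values), which chance exceeds in about 1 of 20 groups. It was exceeded in 2, where chance gives 1.7. Neither belonged to a miR-142 strand, miR-150, miR-342-3p or the miR-142 strand ratio. The endothelial miR-126-3p was low on vehicle control replicate 2 (log2 relative signal 5.20, next lowest 5.38, gap 0.893 of the range), the array with the highest miR-142-3p. The liver miRNA miR-122 lay at the floor on Printex 90 replicate 3 (-4.69, next lowest -1.61, gap 0.880 of the range).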

How the results depend on the processing

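The log2 differences of the 3p and 5p strands of miR-142, of miR-150 and of miR-342-3p stayed on the same side of the adjusted p of 0.05 under all 22 alternatives (limma adjusted p 0.699 to 1.0, 0.699 to 1.0, 0.499 to 0.954 and 0.774 to 1.0), and that of miR-150 kept its sign (-0.211 to -0.025). The sign of the others turned under some. With the percentile over all mouse miRNAs the difference was 0.033 for miR-142-3p, 0.035 for miR-342-3p and 0.0088 for miR-143. With normexp it was 0.023 for miR-142-3p, 0.0004 for miR-142-5p, 0.046 for miR-342-3p, 0.017 for miR-181b and 0.0028 for miR-143. With the deposited value table it was 0.048 for miR-142-3p, 0.080 for miR-342-3p and 0.069 for miR-126-3p. Quantile normalization gave 0.015 for miR-342-3p and 0.0042 for miR-181b, and array weights gave 0.011 for miR-342-3p. The median of all differences ran from -0.12 without scaling to 0.04 with normexp. The cause was not tested.

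With 1 array left out in turn the differences ran from -0.064 to 0.042 for miR-142-3p (0.042 without vehicle control replicate 2, 0.022 without Printex 90 replicate 2), from -0.150 to 0.0078 for miR-142-5p (highest without Printex 90 replicate 3), and from -0.199 to -0.071 for miR-150. For miR-342-3p they ran from -0.066 to 0.036 (0.022 and 0.0015 without vehicle control replicates 2 and 4, 0.036 without Printex 90 replicate 1). The strand ratio difference ran from -0.014 without Printex 90 replicate 3 to 0.086, and the count of miRNAs past the threshold from 0 to 3, the latter without Printex 90 replicate 3. The sign also turned for miR-223 (-0.021 without Printex 90 replicate 3, up to 0.285), miR-451 (0.018 without vehicle control replicate 1, down to -0.399), miR-122 (-0.227 without vehicle control replicate 4, up to 1.25) and miR-143 (0.012 without vehicle control replicate 3, 0.040 and 0.029 without Printex 90 replicates 2 and 4, down to -0.183).

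The count of pairs past an adjusted p of 0.05, 0 of 6 as reported, was 5 without scaling. The mean of the probes' log2 signals and Agilent's total gene signal gave 2. The percentile over all mouse miRNAs, normexp and the deposited table gave 1. With values centred on group means the count was 2, though the permutation p may then be too small. It was 0 to 1 with 1 array left out. The r of miR-150 and miR-342-3p, -0.01 as reported, turned positive with the percentile over all mouse miRNAs (0.236), no scaling (0.476), quantile normalization (0.262), normexp (0.039), the total gene signal (0.068) and the deposited table (0.337). It was also positive without vehicle control replicates 3 and 4 (0.215 and 0.030) and Printex 90 replicates 1 and 2 (0.178 and 0.062), and with 1 array left out it ran from -0.392 to 0.215. The r of miR-142-3p and miR-342-3p was -0.125 with quantile normalization and -0.425 without the 2 farthest arrays. The likeness of miR-150 to miR-466h was 0.503 and of miR-342-3p to miR-219 0.813 with quantile normalization, and with normexp the latter was 0.491. The likeness of miR-142-3p to miR-1198 was -0.184 with normexp, -0.014 with the mean of the probes, -0.714 with the deposited table and -0.371 without vehicle control replicate 2, and up to 0.72 with another array left out.

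The replicate numbers did not pair the samples: the deviations of same-numbered arrays correlated at -0.13, -0.38, -0.47 and 0.44, and no array correlated best with its own number. With the replicate block the differences were -0.020 for miR-142-3p, -0.060 for miR-142-5p, -0.14 for miR-150 and -0.018 for miR-342-3p (limma adjusted p = 0.928, 0.807, 0.777 and 0.915). Under the block 0 miRNAs passed, the strand ratio differed by 0.041 (exact permutation p = 0.875), and the r of miR-142-5p and miR-342-3p was -0.152. Removing the replicate means leaves same-numbered arrays as mirror images of each other, so the permutation p of a pair is too small there. The 3 pairs under the threshold with the block are therefore not counted as passing. Normexp used the median spot signal, since the files have no mean signal. The dimmest probe, of miR-150, had the widest spread between spots, and the number of arrays sets the width of the intervals.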
